A study of Homo sapiens with 6 samples.

Results

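Genes that build the cytoskeleton of neurons were compared between DKO1 cells and their parental line, WT HCT116, an established human colorectal cancer line. The set had 10 listed neurofilament, stathmin and neuronal cytoskeleton genes, and was chosen with earlier results of these data known. The deposited table held 57820 human gene rows, and 9 of the 10 genes matched a row by Ensembl identifier. NEFL, the light neurofilament subunit, matched none and was not analysed here. DKO1 cells (3 samples) were derived from HCT116 by knockout of the DNA methyltransferase genes DNMT1 and DNMT3B, and the WT samples (3) carry neither knockout. The medium for both lines was McCoy's 5A with foetal bovine serum added. All DKO1 samples are of 1 derived line, so other differences from the parental line cannot be told apart from the knockout of both genes. Nothing in the labels says that replicates came from separate cultures, and the p-values therefore reflect sample-to-sample spread that may be technical.

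Neurofilaments are heteropolymers that fill the axon and set its calibre. NEFL, NEFM and NEFH are the light, medium and heavy subunits, INA (alpha-internexin) joins them in central neurons, and PRPH (peripherin) is found mainly in peripheral neurons. The stathmins STMN2, STMN3 and STMN4 bind tubulin dimers and promote microtubule turnover, and unlike the widely expressed STMN1 they are largely neuronal. TUBB3 is the beta-tubulin isotype used as a marker of neurons, and BASP1 is a membrane-bound protein of growth cones. A colorectal cancer line is not a tissue where most of these genes are known to be active.

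In DKO1, 5 of the genes were higher: INA, NEFH, STMN2, STMN3 and BASP1. INA and BASP1 were close to or at 0 TPM in WT, while NEFH was already detectable and rose 11.3-fold. TUBB3 was expressed in both lines and did not pass the main test, though it did with the replicate number as a block. PRPH, NEFM and STMN4 stayed at or below 1.23 TPM in every sample.

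The windows before the start sites of INA, BASP1 and STMN3 are shown because these are the called genes with a promoter window kept here. INA and BASP1 are the pair that was silent in WT, and STMN3 was expressed in both lines. Each is 250 bases long, from RefSeq on build GRCh38.p14, printed 5′ to 3′ on the gene's strand with every CpG, the dinucleotide that DNA methyltransferases modify, in capitals.
INA, chr10:103276888-103277137, plus strand: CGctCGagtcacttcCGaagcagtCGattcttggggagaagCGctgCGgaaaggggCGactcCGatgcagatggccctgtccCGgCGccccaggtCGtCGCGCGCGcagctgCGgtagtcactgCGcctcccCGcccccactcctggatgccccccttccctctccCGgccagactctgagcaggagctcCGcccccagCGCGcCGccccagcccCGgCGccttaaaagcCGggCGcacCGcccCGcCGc
BASP1, chr5:17216573-17216822, plus strand: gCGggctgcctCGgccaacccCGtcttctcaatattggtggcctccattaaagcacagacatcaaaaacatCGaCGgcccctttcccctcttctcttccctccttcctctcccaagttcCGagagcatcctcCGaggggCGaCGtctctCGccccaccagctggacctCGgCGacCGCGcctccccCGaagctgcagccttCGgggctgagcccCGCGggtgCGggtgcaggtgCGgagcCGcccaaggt
STMN3, chr20:63652767-63653016, minus strand: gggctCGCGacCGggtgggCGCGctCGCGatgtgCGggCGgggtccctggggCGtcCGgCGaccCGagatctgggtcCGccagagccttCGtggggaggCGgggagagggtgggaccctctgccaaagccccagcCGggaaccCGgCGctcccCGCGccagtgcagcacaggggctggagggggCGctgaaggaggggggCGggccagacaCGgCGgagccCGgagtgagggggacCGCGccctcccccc

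These windows held 30, 21 and 28 CpGs for INA, BASP1 and STMN3, against a median of 11 over 35116 promoter windows of the same length. The INA window had more CpGs than 87.6% of all windows, the STMN3 window more than 84.1% and the BASP1 window more than 69.8%. PRPH and TUBB3, which were not called, also had entries. The PRPH window had 10 CpGs. TUBB3 had 9 CpGs before its upstream start and 39 before its downstream start, more than 97.3% of all windows. The window with the most CpGs and the one with the fewest were both of TUBB3, and which start these cells use was not tested. NEFH, also called, had no window here. Member windows on chromosome 8, which holds STMN2, also called, and NEFM and STMN4, were left out. The CpG counts are therefore a description of 6 windows. Both strands were searched for exact matches to short motifs. Sites that differ by a letter or lie outside these windows were not counted. GGGCGG, the core letters of a GC box, occurred in 4 of the 6 windows, the INA, BASP1, STMN3 and downstream TUBB3 ones, and in 42.6% of all windows. TATAAA occurred in the PRPH window alone and in 10.7% of all. TTCAGCACC, the left part of the element bound by the repressor REST, was in none of the 6 windows and in 0.288% of all, and the right part was also in none and in 0.199% of all. TGACGTCA, the cAMP response element, was in none of the 6 and in 1.65% of all. No methylation was measured in the files used here.

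The deposited values are TPM, a transcript level scaled to a fixed total per sample and corrected for gene length, so levels of different genes can be compared. Depth is not recorded in TPM and is unknown. Mitochondrially encoded genes took 21.2% to 27.7% of the TPM in DKO1 and 19.7% to 20.1% in WT. Synthetic spike-in rows took 1.30% to 2.01% in DKO1 and 1.28% to 1.47% in WT. Replicate 2 of both lines deviated in the same way from its group, as described with the processing. DNMT1, which copies methylation at replication, had 31.07, 30.81 and 46.82 TPM in DKO1 and 244.87, 249.97 and 231.01 TPM in WT (log2 fold change −2.73, limma adjusted p = 3.59e-05). DNMT3B had 4.86, 4.85 and 3.56 TPM in DKO1 and 8.22, 7.09 and 6.77 TPM in WT (log2 fold change −0.63, limma adjusted p = 0.0300). Leaving out DKO1 replicate 1 (0.0535) or any WT replicate (0.0778 to 0.11) ended this call, as did removing mitochondrial and spike-in rows (0.0645).

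The test was limma on log2(TPM + 1), fitted to the 13604 genes that reached 1 TPM in 3 or more of the 6 samples, with Benjamini-Hochberg adjustment over all of them and a threshold of 0.05. Fold changes are DKO1 minus WT on that log2 scale with their standard error (SE), and they understate the change of low genes. Of the tested genes, 2558 (18.8%) were called higher and 1306 (9.6%) lower, so 66.2% of calls were rises. Under quantile normalization 1817 were called higher and 1939 lower (48.4% rises), and the median change over all tested genes was −0.07 on the log2 scale, against 0.07 without it. Of the 9 matched genes, 6 were tested, 5 were called higher, 0 were called lower and TUBB3 was not called. NEFM, PRPH and STMN4 were too low to be tested. INA, STMN2 and BASP1 passed the filter only through their DKO1 values and so had to differ, and the count of calls is therefore a description of the set. The same holds for TUBB2B, CRMP1, ADD2, DYNC1I1, MYT1L and HEY1 below, whose p-values and places in the counts of their lists are likewise descriptions.

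**Figure D1:**
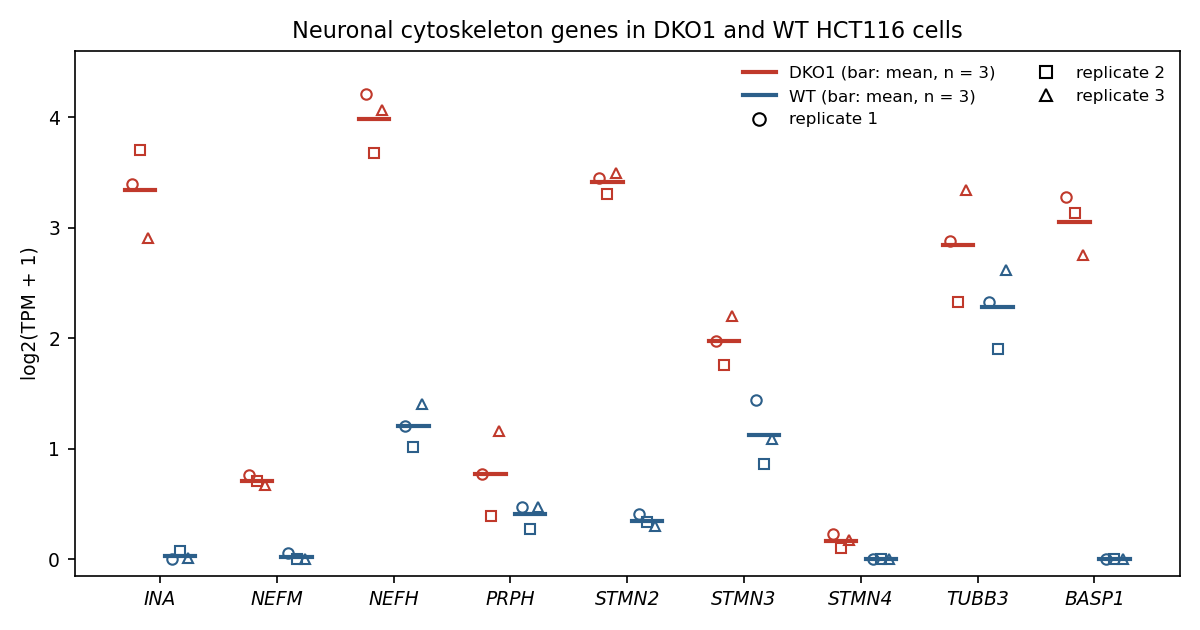
Level of each matched gene in every sample as log2(TPM + 1), with DKO1 in red to the left of WT in blue, symbols for replicate numbers and bars for group means (n = 3 each). The groups are separate, with DKO1 higher, for 7 of the 9 genes, as for 13.3% of all human rows and 27.5% of tested genes, and overlap for PRPH and TUBB3.

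Among the intermediate filament genes, INA showed the largest log2 fold change of the set. INA (ENSG00000148798.5, chromosome 10) had 9.54, 12.05 and 6.5 TPM in DKO1, against 0, 0.05 and 0.01 TPM in WT. All DKO1 samples lay far above all WT samples, with replicate 2 the highest and replicate 3 the lowest in DKO1. The means were 9.36 ± 2.78 TPM in DKO1 and 0.020 ± 0.026 TPM in WT (SD, n = 3 each), and the log2 fold change was 3.31 (SE 0.22, limma adjusted p = 4.24e-05). No ratio of TPM is given where the WT mean was below 0.5 TPM. INA and BASP1 met a stricter description, 1 TPM or more in all DKO1 samples and under 0.1 TPM in all WT samples, which 401 of the 57820 human rows (0.694%) met.

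NEFH, the heavy subunit that carries the long phosphorylated side arm, was the most abundant of the set in DKO1. NEFH (ENSG00000100285.9, chromosome 22) had 17.47, 11.77 and 15.75 TPM in DKO1, against 1.31, 1.02 and 1.64 TPM in WT. The lowest DKO1 sample was above the highest WT sample, and replicate 2 was the lowest of its group in both lines. The mean was 15.0 ± 2.92 TPM in DKO1 and 1.32 ± 0.31 TPM in WT, 11.3-fold higher in DKO1 (log2 fold change 2.78, SE 0.20, limma adjusted p = 6.12e-05). By replicate number the ratios of DKO1 to WT were 13.3, 11.5 and 9.60. NEFH exceeded 88.5% to 90.4% of human gene rows in the DKO1 samples and 79.1% to 80.7% in the WT samples.

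NEFM, the medium subunit, stayed below 1 TPM but was separated between the lines. It had 0.69, 0.63 and 0.59 TPM in DKO1, against 0.04, 0 and 0 TPM in WT. With no filter on low values, NEFM had a log2 fold change of 0.69 (limma adjusted p = 0.000877, where 14.9% of 29487 genes were called higher). PRPH had 0.71, 0.31 and 1.23 TPM in DKO1, against 0.39, 0.21 and 0.39 TPM in WT. Its groups overlapped, since DKO1 replicate 2 lay below WT replicates 1 and 3, and with no filter its log2 fold change of 0.37 did not pass (limma adjusted p = 0.279, 95% interval −0.12 to 0.85). By replicate number PRPH was higher in DKO1 than in WT in 3 of 3 pairs, and with the replicate block and no filter it did not pass either (adjusted p = 0.176, where 13% of genes were called higher).

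Summed over INA, NEFM, NEFH and PRPH, neuronal intermediate filament transcripts came to 28.41, 24.76 and 24.07 TPM in DKO1, against 1.74, 1.28 and 2.04 TPM in WT. The difference of means was 24.1 TPM (exact permutation p = 0.1, two-sided, the smallest that 3 against 3 samples allow, 0.122 after Benjamini-Hochberg adjustment over 11 such sums and shares). The shares within the sum have the same smallest possible p of 0.1 in the exact permutation test and are given as values. INA made up 33.6%, 48.7% and 27% of this sum in DKO1, against 0%, 3.91% and 0.490% in WT. PRPH made up 2.5%, 1.25% and 5.11% in DKO1, against 22.4%, 16.4% and 19.1% in WT, although its level was not shown to differ. NEFH was the largest part of the sum in 5 of the 6 samples, the exception being DKO1 replicate 2, where INA was larger. Relative to vimentin transcripts, the sum was 3.14% ± 0.19 in DKO1 and 0.67% ± 0.16 in WT (SD, n = 3 each), so these genes remained a small part of the filament transcripts in both lines.

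Of the stathmins, STMN2 rose the most. STMN2 (ENSG00000104435.9, chromosome 8), known for its part in axon regrowth, had 9.92, 8.86 and 10.23 TPM in DKO1, against 0.33, 0.26 and 0.23 TPM in WT. Its DKO1 samples were the closest together, in proportion to their mean, among the genes called. The log2 fold change was 3.07 (SE 0.14, limma adjusted p = 1.17e-05).

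STMN3 (ENSG00000197457.5, chromosome 20) had 2.92, 2.38 and 3.58 TPM in DKO1, against 1.71, 0.81 and 1.12 TPM in WT. The groups did not overlap, but the lowest DKO1 value and the highest WT value were close. STMN3 was 2.44-fold higher in DKO1 (log2 fold change 0.85, SE 0.20, limma adjusted p = 0.0185). This call was lost without DKO1 replicate 1 (0.0564), WT replicate 2 (0.0745) or WT replicate 3 (0.0748), and under quantile normalization (log2 fold change 0.44, adjusted p = 0.101). STMN4 had 0.17, 0.07 and 0.13 TPM in DKO1 and was listed at 0 in all WT samples.

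The ubiquitous STMN1 outweighed these genes in both lines, with 1640.17, 1753.33 and 1549.15 TPM in DKO1 and 1527.41, 1485.77 and 1392.62 TPM in WT (log2 fold change 0.17, limma adjusted p = 0.297). STMN2 to STMN4 together made up 0.787%, 0.641% and 0.892% of stathmin family transcripts in DKO1, against 0.133%, 0.0720% and 0.0968% in WT (exact permutation p = 0.1, two-sided, the smallest possible). The neuronal members thus took a larger share in every DKO1 sample than in any WT sample, and the share stayed below 1% throughout.

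BASP1 (ENSG00000176788.7, chromosome 5) had 8.70, 7.74 and 5.75 TPM in DKO1 and was listed at 0 in all WT samples. Replicate 3 was the lowest DKO1 sample, as for INA. The mean in DKO1 was 7.40 ± 1.5 TPM (SD, n = 3), and the log2 fold change was 3.05 (SE 0.17, limma adjusted p = 2.37e-05).

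TUBB3 (ENSG00000258947.2, chromosome 16) was the gene of the set with the highest level in WT. It had 6.35, 4 and 9.10 TPM in DKO1, against 4.01, 2.74 and 5.13 TPM in WT. The groups overlapped: DKO1 replicate 2 was below WT replicates 1 and 3. The mean was 6.48 ± 2.55 TPM in DKO1 and 3.96 ± 1.2 TPM in WT, and the log2 fold change of 0.56 did not pass (95% interval −0.13 to 1.26, limma adjusted p = 0.199). In both lines replicate 2 was the lowest and replicate 3 the highest, and the ratio of DKO1 to WT by replicate number was 1.58, 1.46 and 1.77. With the replicate number as a block the same fold change was called (adjusted p = 0.0313, where 22.4% of tested genes were called higher). TUBB3 made up 0.726%, 0.569% and 1.11% of the transcripts of 8 beta-tubulin genes in DKO1, against 0.477%, 0.368% and 0.635% in WT (exact permutation p = 0.2, two-sided, 0.22 adjusted over the 11 sums and shares).

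**Figure D2:**
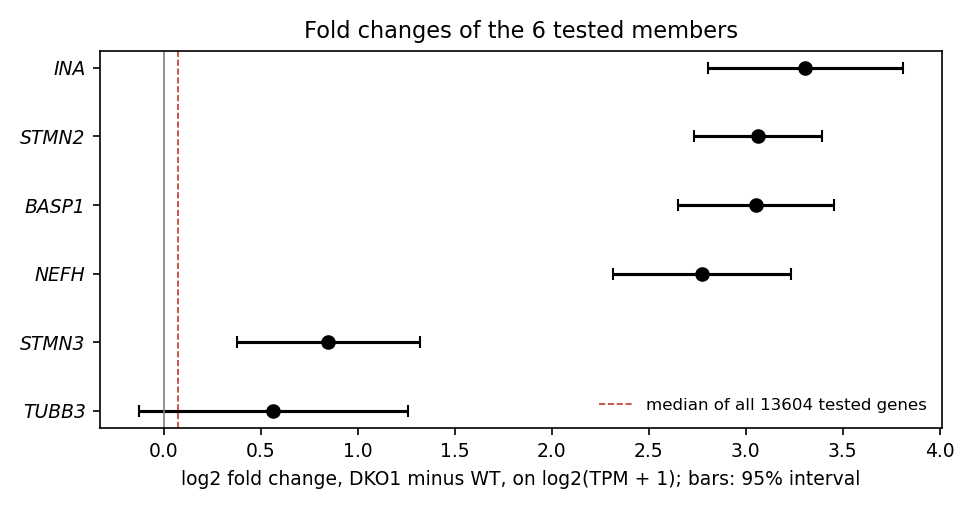
Log2 fold changes (DKO1 minus WT, on log2(TPM + 1)) of the 6 tested genes with 95% intervals from limma; the dashed line is the median of all tested genes, 0.07. INA, STMN2, BASP1 and NEFH lie between 2.78 and 3.31, STMN3 at 0.85 and TUBB3 at 0.56, with an interval that includes 0.

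With the pseudocount of 1, the log2 fold changes of 4 tested genes lay between 2.78 and 3.31, with 95% intervals that overlapped each other, and STMN3 and TUBB3 lay at or below 0.85. With a pseudocount of 0.1 the 4 spread out, at 3.41 for NEFH (95% interval 2.82 to 4), 4.72 for STMN2 (4.2 to 5.23), 6.21 for BASP1 (5.61 to 6.80) and 6.28 for INA (5.54 to 7.02), and only the intervals of BASP1 and INA overlapped. Over all tested genes, 268 (1.97%) were called with a log2 fold change of at least 2.5. Ordered by mean TPM in DKO1, NEFH came first, followed by STMN2, INA, BASP1, TUBB3, STMN3, PRPH, NEFM and STMN4. The ranges of NEFH and STMN2 did not overlap, nor did those of TUBB3 and STMN3, of STMN3 and PRPH, or of NEFM and STMN4. Those of STMN2 and INA, of INA and BASP1, of BASP1 and TUBB3, and of PRPH and NEFM did overlap. The order in WT was TUBB3, NEFH, STMN3, PRPH and STMN2, with INA and NEFM at or below 0.05 TPM and STMN4 and BASP1 listed at 0. Within the DKO1 line, replicate 2 was the lowest sample for 6 of the 9 genes, and replicate 3 was the lowest for INA, NEFM and BASP1. Replicate 2 was the highest for INA.

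**Figure D3:**
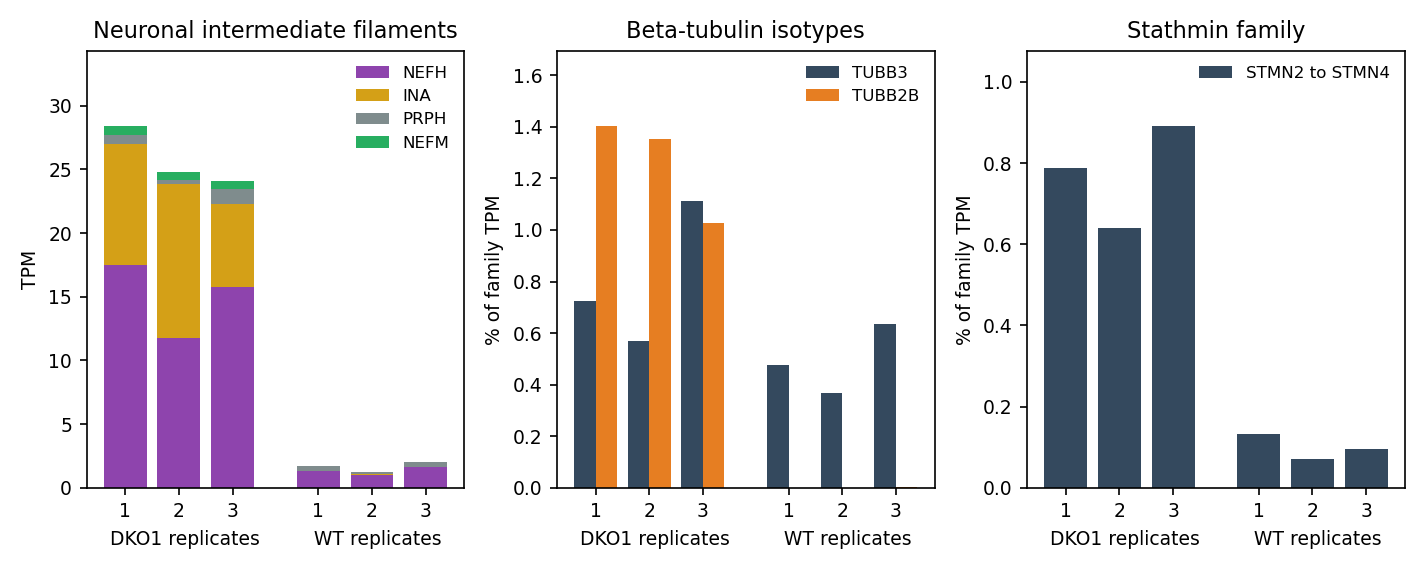
TPM of the 4 matched neuronal intermediate filament genes (left), share of TUBB3 and TUBB2B in beta-tubulin TPM (middle) and share of STMN2 to STMN4 in stathmin TPM (right), per sample, with DKO1 left of WT. The filament sum is 24.1 to 28.4 TPM in DKO1 and 1.28 to 2.04 TPM in WT, and TUBB2B, near 0 in WT, exceeds TUBB3 in DKO1 replicates 1 and 2.

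Other intermediate filament genes moved with the set in part. Of 7 tested genes outside the neurofilament group and the keratins, 3 rose and 1 fell (median log2 fold change 0.51, against 0.07 over all tested genes). The shares over all tested genes were 18.8% called higher and 9.6% lower. VIM, the filament of mesenchymal cells, had 897.67, 842.91 and 725.05 TPM in DKO1 and 228.53, 267.90 and 268.64 TPM in WT (log2 fold change 1.68, limma adjusted p = 7.8e-05). NES, the filament of neural progenitors, rose 3.07-fold (82.19, 102.85 and 77.37 TPM in DKO1 and 30.64, 31.98 and 22.83 TPM in WT). SYNM, a filament-linking protein, rose 1.79-fold, a call that was lost in 5 of the 6 fits that left out a sample (adjusted p from 0.0683 to 0.161) under quantile normalization (0.786) and median-ratio scaling (0.0624), and with no filter (0.0999). LMNB1, a nuclear lamin, was at 0.757 times its WT mean, and its call was lost without any of the WT replicates (0.0782 to 0.0835), under quantile normalization (log2 fold change −0.22, adjusted p = 0.138) and with mitochondrial and spike-in rows removed (−0.29 and 0.0609).

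Among the tested tubulins other than TUBB3, a pair of isotypes with neuronal expression had the largest log2 fold changes. Of 10 tested alpha and beta tubulin genes, 4 rose and 0 fell, where 18.8% of all tested genes were called higher and 9.6% lower (median log2 fold change 0.44). TUBB2B, a beta-tubulin of developing brain, had 12.28, 9.51 and 8.40 TPM in DKO1, against 0, 0 and 0.02 TPM in WT (log2 fold change 3.44, SE 0.17, limma adjusted p = 1.46e-05). TUBB2A had 42.44, 28.12 and 36.45 TPM in DKO1, against 10.37, 9.16 and 10.08 TPM in WT, 3.61-fold higher. These genes are nearly identical in coding sequence, so the split of reads between them is uncertain. TUBB6 rose 1.57-fold, and TUBA1A 1.70-fold, a call that was lost without DKO1 replicate 1 or 3 (0.119 and 0.0649) or WT replicate 2 or 3 (0.121 and 0.143). In DKO1, TUBA3C had 3.1, 0.69 and 3.65 TPM and TUBA3D 2.17, 0.47 and 1.7 TPM, and both were listed at 0 in all WT samples. They were too low to be tested and are named after their values were seen. The dominant isotype TUBB had 607.75, 534.72 and 559.76 TPM in DKO1 and 693.80, 624.85 and 665.31 TPM in WT and did not pass (log2 fold change −0.22, limma adjusted p = 0.157). Beta-tubulin transcripts summed to 799 ± 87.9 TPM in DKO1 and 798 ± 48.7 TPM in WT (SD, n = 3 each, exact permutation p = 1, two-sided).

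Microtubule-associated and collapsin response mediator (CRMP) genes gave 6 rises and 0 falls among 16 tested (median log2 fold change 0.21), where 18.8% of all tested genes were called higher and 9.6% lower. Under quantile normalization the list had 4 falls. DCLK1, a microtubule-binding kinase, had 11.60, 12.46 and 13.19 TPM in DKO1, against 1.2, 1.27 and 1.01 TPM in WT, 10.7-fold higher (log2 fold change 2.64, SE 0.15, limma adjusted p = 2.21e-05). NAV2 rose 5.23-fold and DPYSL3, a CRMP of growth cones, 4.45-fold. CRMP1 had 2.25, 1.12 and 1.42 TPM in DKO1, against 0, 0.02 and 0.02 TPM in WT, and its call was lost under quantile normalization (adjusted p = 0.0795).

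Growth cone and membrane skeleton genes went both ways, with 2 rises and 3 falls among 13 tested (median log2 fold change −0.25), where 18.8% of all tested genes were called higher and 9.6% lower. ADD2, an adducin of neurons and red cells that links spectrin to actin, had 5.82, 5.03 and 5.67 TPM in DKO1, against 0, 0.01 and 0.01 TPM in WT (log2 fold change 2.69, SE 0.13, limma adjusted p = 1.46e-05). SPTBN1, a spectrin, rose 1.58-fold. CAP2 and ENAH, regulators of actin, fell by 1.36 and 1.02 on the log2 scale, and the fall that completes the count was of ABLIM1, named after its value was seen and lost without WT replicate 1 (0.0537) or 2 (0.0518). GAP43, a growth cone protein often described together with BASP1, had 0.62, 0.58 and 0.57 TPM in DKO1 and was listed at 0 in WT, too low to be tested, and is also named after its values were seen.

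Motors of axonal transport gave 4 rises and 1 fall among 14 tested (median log2 fold change 0.11), where 18.8% of all tested genes were called higher and 9.6% lower. DYNC1I1, a dynein chain of neurons, had 3.95, 2.67 and 2.13 TPM in DKO1, against 0.23, 0.16 and 0.11 TPM in WT (log2 fold change 1.72). KIF3C rose 2.34-fold, with the call lost under quantile normalization (0.181), KLC1 rose 1.71-fold, and KIF5C, named after its value was seen, rose 1.77-fold, a call lost without WT replicate 1 (0.0521) or 3 (0.0635). KIF21A fell by 0.86 on the log2 scale, and its call was lost without any single sample other than DKO1 replicate 3 (adjusted p from 0.0799 to 0.113).

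**Figure D4:**
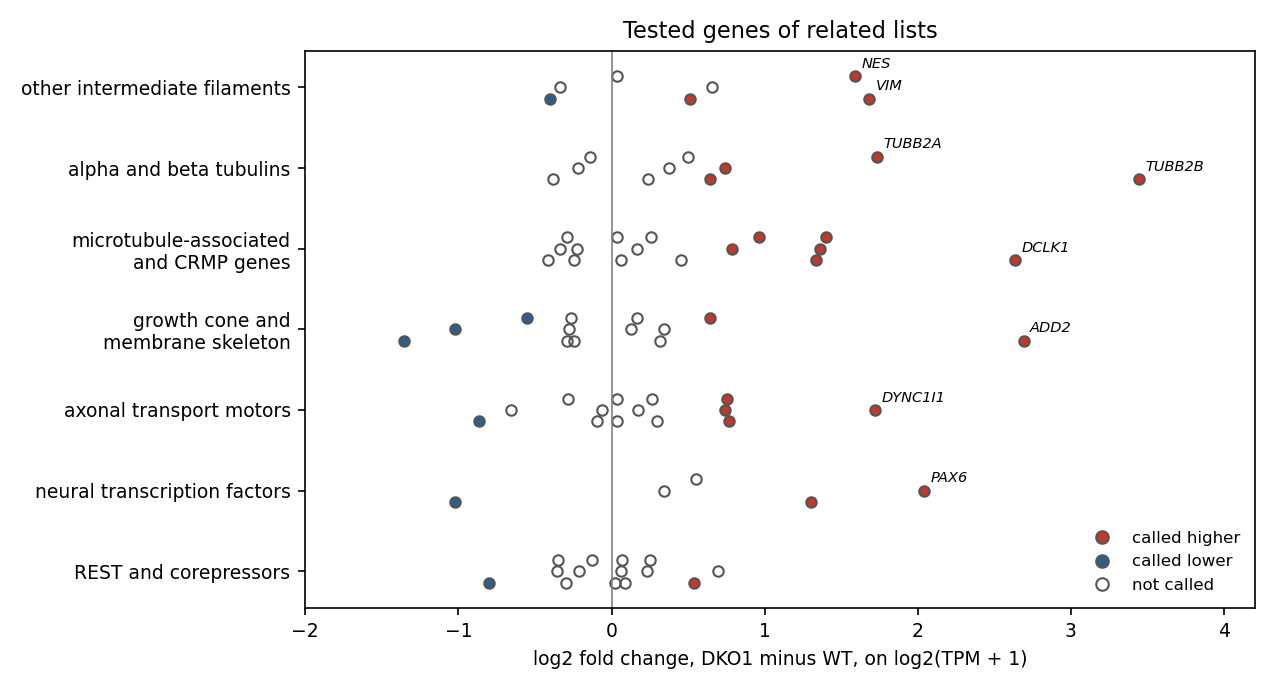
Log2 fold changes (DKO1 minus WT, on log2(TPM + 1)) of the tested genes of 7 related lists; each point is a gene, red for called higher, blue for called lower and open for not called, with names above 1.5. The points spread along the axis within a list, are offset vertically only to separate them, and reach 3.44 at TUBB2B.

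REST, a repressor of neuronal genes in non-neuronal cells, was lower in DKO1. It had 10.05, 13.78 and 14.81 TPM in DKO1, against 23.97, 24.79 and 20.18 TPM in WT (log2 fold change −0.80, SE 0.18, limma adjusted p = 0.0139). The groups did not overlap, and the call was lost without WT replicate 1 (0.0594) or 2 (0.0631). Of 14 tested genes of REST and its corepressors, 1 rose and 1 fell, where 18.8% of all tested genes were called higher and 9.6% lower. The rise was of the corepressor RCOR1, with 37.63, 45.11 and 32.50 TPM in DKO1 and 24.41, 27.47 and 25.78 TPM in WT (limma adjusted p = 0.0315), lost in every fit that left out a sample except that without DKO1 replicate 3 (0.0571 to 0.113) and with quantile normalization (0.0551) or median-ratio scaling (0.1). Whether the level of REST bears on the neuronal genes was not tested.

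Regulators and markers of neurons were mostly low in both lines. Of 25 neural transcription factors, 19 were below 1 TPM in every sample. Groups did not overlap, with DKO1 higher, for 14 of the 25, as for 13.3% of all human rows. Among the 5 tested 2 rose and 1 fell, where 18.8% of all tested genes were called higher and 9.6% lower. PAX6 had 31.26, 28.82 and 31.37 TPM in DKO1, against 6.66, 6.56 and 6.71 TPM in WT, 4.59-fold higher. MYT1L had 1.32, 1.68 and 1.42 TPM in DKO1 and was listed at 0 in WT, and SOX4 fell by 1.02 on the log2 scale. The 12 neuron markers summed to 25.03 to 32.66 TPM in DKO1 and 11.47 to 13.25 TPM in WT, and 2 of the 3 tested rose. Those were SLC17A7, a vesicular glutamate transporter (8.67, 6.83 and 7 TPM in DKO1 and 1.45, 1.12 and 0.69 TPM in WT), and GAD1, which makes the transmitter GABA (10.68, 11.92 and 15.89 TPM in DKO1 and 7.66, 7.28 and 8.95 TPM in WT), named after their values were seen. The GAD1 call (limma adjusted p = 0.0423) was lost without any single sample other than DKO1 replicate 1 (0.0555 to 0.146), with quantile normalization (0.0796) and with no filter (0.0571). Of the 12 neuron markers, 6 had groups that did not overlap, with DKO1 higher, as 13.3% of all human rows did. They include SYT1, which did not pass (2.54, 3.17 and 3.8 TPM in DKO1 and 2.04, 1.52 and 2.16 TPM in WT), and 3 too low to be tested. Those were SYN1 (1.04, 0.72 and 0.80 TPM in DKO1 and 0.13, 0.08 and 0.04 TPM in WT), ELAVL4 (0.54, 0.59 and 1.23 TPM in DKO1 and 0, 0.02 and 0 TPM in WT) and NCAM1 (0.24, 0.27 and 0.70 TPM in DKO1 and 0.03, 0.03 and 0.17 TPM in WT). The markers DCX and ELAVL3 did not exceed 0.03 and 0.07 TPM in any sample, and RBFOX3 and SYP did not exceed 0.30 and 0.35 TPM. SNAP25 and GRIN1 reached 1.14 and 1.9 TPM, each in a DKO1 sample. All of these had groups that overlapped and are named after their values were seen. The 6 neuroendocrine markers summed to 48.17 to 78.64 TPM in DKO1 and 16.75 to 20.99 TPM in WT, and 1 of the 2 tested, SCG2, was called higher, while CHGA stayed at or below 0.05 TPM. The 8 epithelial markers summed to 700 to 930 TPM in DKO1 and 942 to 1178 TPM in WT, with EPCAM at 371 to 500 TPM in DKO1 and 457 to 536 TPM in WT. Their members went both ways: the adhesion gene CDH1 was called 3.30-fold higher (limma adjusted p = 0.000418) and the intestinal factor CDX2 lower (log2 fold change −0.49, limma adjusted p = 0.026). The CDX2 call was lost without any of the WT replicates (0.0789 to 0.102), and CDX2 passed the filter only through WT. KRT8 had 255.95, 142.33 and 258.21 TPM in DKO1 and 488.37, 332.91 and 325.78 TPM in WT and did not pass (limma adjusted p = 0.0543). Sums of the 7 glial markers were 14.25 to 15.93 TPM in DKO1 and 6.98 to 10.13 TPM in WT. MBP, the only glial marker tested, was called higher (limma adjusted p = 0.0407) and is named after its value was seen. Its call was not followed under the alternative settings. The 6 fibroblast markers summed to 2.99 to 3.37 TPM in DKO1 and 1.03 to 1.42 TPM in WT, and the 5 blood markers to at most 1.26 TPM. Groups were separate, with DKO1 higher, for 6 of the 7 glial, 4 of the 6 fibroblast and 3 of the 5 blood markers. The same held for 2 of the 6 neuroendocrine and 2 of the 8 epithelial markers. Such separation was thus not particular to the neuron markers. In bulk samples, a change in the number of cells that express a gene and a change in RNA per cell cannot be told apart.

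The genes next to the members were taken in GENCODE 29 order. Of 18 flanking protein-coding genes outside the set, 12 were tested, and 4 rose and 1 fell, where 18.8% of all tested genes were called higher and 9.6% lower. MYO10, beside BASP1, had 12.56, 11.98 and 10.21 TPM in DKO1 and 4.63, 5.17 and 4.62 TPM in WT (log2 fold change 1.11, limma adjusted p = 0.00132). HEY1, beside STMN2, had 1.01, 1.08 and 1.05 TPM in DKO1 and 0.20, 0.20 and 0.14 TPM in WT (log2 fold change 0.79, and −0.078 under quantile normalization). TRIM35, beside STMN4, and DOCK5, beside NEFL, rose by 0.73 and 0.57 on the log2 scale. The TRIM35 call was lost under quantile normalization (0.0538), and that of DOCK5 without DKO1 replicate 2 or 3 (0.0638 and 0.0586) or any WT replicate (0.0870 to 0.118). PCGF6, a Polycomb subunit gene beside INA, fell by 0.64, and its call was lost without any WT replicate (0.0702 to 0.0886). The libraries were stranded, but no source used here says whether counting used the strand, so reads of a gene and an antisense partner may mix. The 11 matched genes whose models overlap a member did not exceed 0.17 TPM in any sample, and the row that overlaps TUBB3 on its own strand was listed at 0 throughout.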

How the data were processed

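RNA from 3 DKO1 and 3 WT samples of HCT116 was extracted with TRIzol and made into stranded messenger RNA libraries with an Illumina kit, per the labels' protocols. The authors deposited TPM values per gene, rounded to 2 decimals, with replicates kept apart. The tools named, without role or order, per the submitters' processing notes were STAR 2.5.3a, RSEM 1.2.21, edgeR 3.12.1, Trim Galore 0.4.0 and FastQC, with builds hg19 and GRCh37. The annotation release is not given in the sources used here. TPM keeps no depth, so no counting interval is given.

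Of 57897 rows, 77 spike-in rows were left out, and 52338 of 57820 human rows received a symbol from a gene name table or GENCODE 29 (GRCh38), which was used for names, chromosomes and neighbours only. limma 3.58.1 in R 4.3.3 with a variance trend tested genes that reached 1 TPM in 3 or more samples on log2(TPM + 1). The script was tested on simulated data. Sums and shares used exact permutation tests in SciPy 1.17.1. The members and lists were chosen with earlier results of these data known. All members, DNMT1 and DNMT3B, called neighbours, up to 4 called genes per list with the largest change and separate groups, and VIM, NES, STMN1, TUBB, REST and RCOR1 are named. TUBB8 and MARCKS, like NEFL, matched no identifier and were not analysed here.

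Same-numbered samples deviated together from their group means over tested genes (correlations of 0.350, 0.572 and 0.267 for replicates 1, 2 and 3). The numbers were therefore used as pairs in the fits with a replicate block and in the comparisons by replicate number. The main fit and the permutation tests did not use them. The labels do not say what a number marks.

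The alternatives tried were the replicate number as a block, leaving out each sample, quantile normalization, median-ratio scaling, rescaling after removal of mitochondrial and spike-in rows, a fit with no variance trend, a pseudocount of 0.1, a filter at a mean of 5 TPM, and no filter. Leaving out replicate 2 of both lines, and the block with no filter, were added after the data were seen.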

Additional observations from a re-analysis of the deposited data

How the results depend on the processing

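INA, NEFH, STMN2 and BASP1 kept their direction and their call under every alternative in which they were tested, with log2 fold changes of 2.76 to 6.28, 2.52 to 3.41, 2.58 to 4.72 and 2.56 to 6.21. The upper ends came from a pseudocount of 0.1. In the fits that keep the main filter, INA, STMN2 and BASP1 had to differ, so their kept calls there are descriptions. INA, STMN2, STMN3 and BASP1 could not be tested at a mean of at least 5 TPM, where 1 member was called, because fewer genes passed. The number of members called was 4 to 5 when 1 sample was left out, 4 under quantile normalization and without replicate 2 of both lines, 6 with the replicate block and 7 with no filter, which adds NEFM and STMN4 (STMN4 was not called with no filter and the replicate block, adjusted p = 0.0618). Leaving out replicate 2 of both lines ended the calls of STMN3 (adjusted p = 0.0506) and REST (0.0699), and of DNMT3B, RCOR1, LMNB1, KIF21A, KIF5C, TUBA1A, SYNM, GAD1, CDX2, PCGF6 and DOCK5 (0.0683 to 0.18). Among the named genes followed through the alternatives, the replicate block changed no call other than those of TUBB3 and, with no filter, STMN4. MBP, KRT8, SYT1 and EPCAM were not followed through them. HEY1 turned to a log2 fold change of −0.078 under quantile normalization, and the cause was not tested.

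Over all genes, 3864 were called, and 2255 to 4690 when 1 sample was left out (1705 to 2842 higher and 524 to 2079 lower), 2524 without replicate 2 of both lines (492 lower), 2222 at a mean of at least 5 TPM (1145 higher) and 4870 with the replicate block. With no filter 4400 were called higher. The difference in summed neuronal filament TPM was 22.7 to 24.9 when 1 sample was left out and 33.3 with mitochondrial and spike-in rows removed, where every remaining value is scaled up. The TUBB3 share differed by 0.154 to 0.426 percentage points and the STMN2 to STMN4 share by 0.613 to 0.739 when 1 sample was left out. Values near 0 TPM limit NEFM, PRPH and STMN4.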
